A study of Homo sapiens with 18 samples.

Results

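The 10 genes described here belong to the transforming growth factor beta (TGF-beta) and bone morphogenetic protein (BMP) response and were followed through the transcriptomes of NCI-H1299 cells overexpressing single T-box genes. They were chosen by symbol, as the rows of the count table whose Ensembl identifiers belong to the ligands TGFB1, TGFB2 and BMP4, the decoy receptor BAMBI, the inhibitory SMADs SMAD6 and SMAD7, and the inhibitors of DNA binding ID1, ID2, ID3 and ID4. All 10 were found among the 63677 genes of the table. NCI-H1299 is an established human lung cancer line, labelled lung adenocarcinoma, and was used at passage 12 to 14 in low-glucose medium with serum. The 18 libraries fall into 6 groups of 3 (replicates a, b and c). The TBX2, TBX3, TBX4 and TBX5 groups were transiently transfected with a plasmid for that gene. It was human and Flag tagged in a pORF vector for TBX2 and TBX4. For TBX3 it was human and for TBX5 mouse, both HA tagged in a pCGN vector. The EV group carries the label of the empty vector, and the Ctl group is labelled only as control, so what those cells received is not known here. No source used here gives the hours between transfection and RNA extraction for these libraries, nor says whether replicates were separate cultures, so the p-values measure only the spread between these libraries. In these bulk samples, fewer cells that express a gene and less RNA of it per cell cannot be told apart, and a transfected culture holds cells with and without the plasmid.

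TGF-beta and BMP ligands bind pairs of serine/threonine kinase receptors at the cell surface. The activated receptors phosphorylate SMAD2 and SMAD3 (mostly the TGF-beta and activin branch) or SMAD1 and SMAD5 (mostly the BMP branch), which join SMAD4 and enter the nucleus. SMAD7 and SMAD6 are transcribed in response and block the receptors, closing a negative feedback loop. The ID genes are classic targets of BMP signalling. Their products lack a DNA-binding region and hold E proteins away from DNA. BAMBI resembles a type I receptor without its kinase and damps the signal. In lung epithelium, TGF-beta signalling is known for slowing growth and for driving the change towards a mesenchymal state. T-box factors bind DNA through a conserved domain, and TBX2 and TBX3 are known mainly as repressors, TBX4 and TBX5 mainly as activators.

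Each library held 7365221 to 11743179 counts, with a median of 9167758. One gene without a symbol took 10.7% to 53.5% of a library's counts. Its share was 53.5% in TBX5 replicate b and 52.7% in TBX5 replicate c, which left 3436454 and 3793701 counts for all other genes, the fewest of the 18 libraries. The plasmid genes followed the labels. TBX2 rose from 3.07 to 4.83 CPM (reads per library size after edgeR's TMM scaling) in the controls to 4086 to 4821 CPM in its own group, and TBX3 from 1.37 to 3.33 to between 17750 and 25410 CPM. TBX4 had at most 1 count in any control and 7543 to 8497 CPM in its group, and TBX5 had 0 counts in every control and 129 to 242 CPM on the human gene in the group given the mouse plasmid. TBX3 was also at 6.57 to 6.85 CPM in the TBX4 libraries and 7.74 to 13.2 CPM in the TBX5 libraries. The title of TBX4 replicate c ends in TBX5 although its number is that of the TBX4 libraries. It was placed in TBX4 by that number. All 3 TBX4 libraries held at least 85197 counts of TBX4 and at most 1 of TBX5. Without it, 0 of the 8 tested genes passed between TBX4 and the controls, as with it, at log2 fold changes of -0.17 for ID1, 0.29 for ID2, -0.08 for ID3, 0.11 for ID4, -0.12 for TGFB2 and, for the other 3, the values given below. The epithelial keratins KRT8 (19.3 to 52.7 CPM) and KRT18 (43.2 to 75.8 CPM) and the mesenchymal marker VIM (692 to 970 CPM) were present. EPCAM, KRT19 and CDH1 had at most 3 counts in any library, and of the lung lineage markers NKX2-1 reached 4 counts, SFTPC 1, SFTPB 9 and NAPSA 10. The 5 epithelial markers summed to 66.4 to 74.5 CPM with TBX2, 77.1 to 85.1 CPM with TBX3 and 96.5 to 114 CPM in the controls. The 4 markers of a mesenchymal state summed to 815 to 878 CPM with TBX2, 868 to 899 CPM with TBX3 and 967 to 1084 CPM in the controls. The part of these differences in the TBX2 and TBX3 results was not tested. The mitochondrial ribosomal RNA MT-RNR2 took 16.0% to 18.6% of all counts with TBX4 and 11.1% to 15.3% in the controls. These totals include the most counted gene, which took 13.2% to 18.6% with TBX4, 12.4% to 34.7% in EV and 30.3% to 40.2% in Ctl. The MT-RNR2 ranges thus also reflect that gene's share and are not a difference in MT-RNR2 alone. The part of either in the TBX4 results was not tested. Marker lists of leukocytes, endothelium and fibroblasts summed to at most 1.62 CPM in any library.

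The stretches of DNA just upstream of SMAD7, ID3, ID1 and ID2 are shown because these 4 genes carry most of the differences below. Each is the 250 bases before the gene's RefSeq start. The sequences come from RefSeq (GRCh38.p14) and each matched 1 place in GRCh37, the build of the files. They are written 5′ to 3′ on the strand of the gene, with the SMAD-binding letters CAGAC, or the complement GTCTG, in capitals.
SMAD7: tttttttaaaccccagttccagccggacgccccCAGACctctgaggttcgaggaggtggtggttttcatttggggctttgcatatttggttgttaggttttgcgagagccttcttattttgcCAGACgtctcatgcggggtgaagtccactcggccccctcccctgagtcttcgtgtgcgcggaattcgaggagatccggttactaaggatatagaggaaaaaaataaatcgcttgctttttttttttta
ID3: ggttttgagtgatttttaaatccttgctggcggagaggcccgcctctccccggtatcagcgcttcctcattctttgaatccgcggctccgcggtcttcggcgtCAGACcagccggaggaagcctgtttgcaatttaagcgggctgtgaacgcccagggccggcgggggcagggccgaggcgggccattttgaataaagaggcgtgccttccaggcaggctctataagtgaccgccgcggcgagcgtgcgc
ID1: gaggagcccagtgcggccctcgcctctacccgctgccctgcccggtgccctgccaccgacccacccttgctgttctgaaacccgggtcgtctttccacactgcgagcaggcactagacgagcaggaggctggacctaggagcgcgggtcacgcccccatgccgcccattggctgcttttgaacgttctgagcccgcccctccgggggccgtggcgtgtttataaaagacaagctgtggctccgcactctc
ID2: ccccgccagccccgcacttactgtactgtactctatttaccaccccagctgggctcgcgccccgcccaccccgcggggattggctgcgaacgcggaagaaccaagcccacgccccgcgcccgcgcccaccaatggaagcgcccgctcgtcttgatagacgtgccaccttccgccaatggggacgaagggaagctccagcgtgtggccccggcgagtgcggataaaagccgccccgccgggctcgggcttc
These windows lie at chr18:46477336-46477585 on the minus strand (SMAD7), chr1:23885993-23886242 on the minus strand (ID3), chr20:30192842-30193091 on the plus strand (ID1) and chr2:8821936-8822185 on the plus strand (ID2). The ID2 window lies inside the annotated gene, whose longest transcript starts upstream of it. SMAD7 held CAGAC at 2 places, 217 and 128 bases before the start, ID3 held it at 1, 147 bases before, and ID1 and ID2 held none. The window of TGFB2, also called in several comparisons but not shown, held CAGAC 243 and 53 bases before its start. Of the 10 genes, 6 had these letters in this window, as had 38.0% of 35116 promoters. The T-box letters AGGTGTGA were on neither strand in any window of the 10 and in 0.786% of all promoters. Their core GGTGT, which they contain, was in 1 (SMAD6) against 32.2%. The GC-rich BMP-type SMAD letters GGCGCC, their own reverse complement, were in 2 (BMP4 and BAMBI) against 16.4%. SMAD7 also had the lowest share of G and C of these 4 windows, 48.0%, against 62.0% in ID3, 66.0% in ID1 and 69.2% in ID2.

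The 10 genes covered a wide range of levels in the 6 control libraries. Scaled per kilobase of exon (RPKM), ID1 was the highest at 18.2 ± 2.81 (SD, n = 6), and its range, 13.5 to 20.9, lay above all the others. TGFB1 at 10.5 ± 1.78 RPKM and ID3 at 10.3 ± 0.604 RPKM could not be ordered, as the range of ID3 lay inside that of TGFB1. ID2 (2.12 ± 0.660), TGFB2 (1.58 ± 0.199) and SMAD7 (1.25 ± 0.223 RPKM) formed the next step, with overlapping ranges between neighbours. ID4 at 0.244 ± 0.0830 and SMAD6 at 0.122 ± 0.0304 RPKM were low and also overlapped in range. BMP4 (0.0791 ± 0.0379) and BAMBI (0.0251 ± 0.0615 RPKM) were the lowest, with 0 to 10 and 0 to 3 counts in any of the 18 libraries. These 2 genes missed the minimum of more than 5 counts in at least 10 libraries, which 15576 genes passed, so 8 of the 10 were tested.

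**Figure D1:**
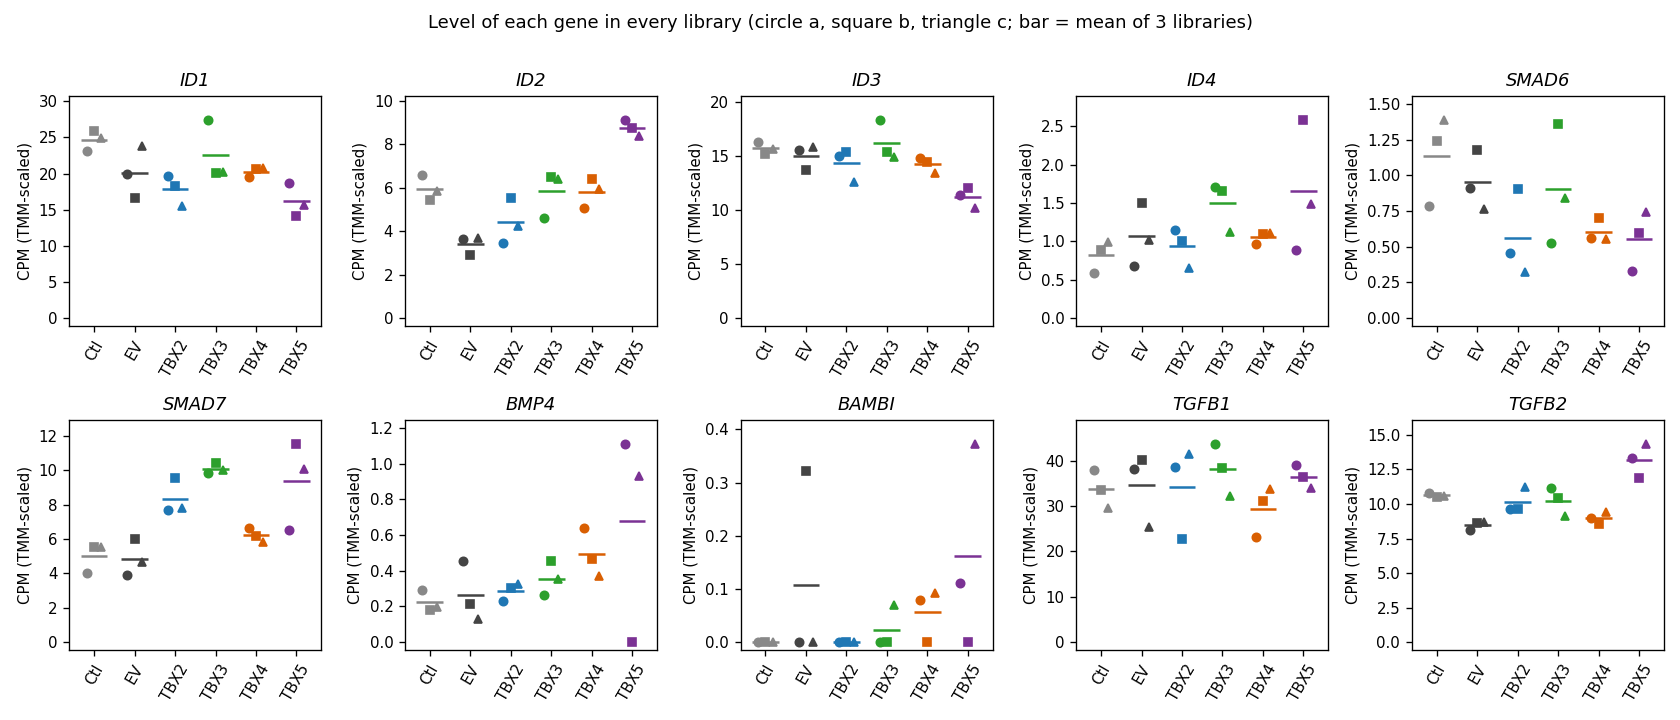
CPM (TMM-scaled, linear axis) of each of the 10 genes in every library, by group, with replicate a as a circle, b as a square, c as a triangle and the mean of 3 libraries as a bar. SMAD7 lies above all 6 controls in TBX2, TBX3 and TBX5, ID2 lies above them in TBX5, and ID3 lies below them in TBX5.

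Each TBX group was compared with the 6 controls pooled (EV and Ctl). The 4 comparisons share these controls, so they are not independent of each other. The label of EV does not name its vector, and the TBX plasmids were of 2 kinds. In these comparisons, the T-box gene therefore cannot be told apart from vector and tag. SMAD7 rose with TBX2, TBX3 and TBX5. ID1 fell with TBX2 and TBX5, and TBX5 alone also lowered ID3 and raised ID2 and TGFB2 past the threshold. By the quasi-likelihood test of edgeR, adjusted by Benjamini-Hochberg and called at a false-discovery rate of 0.1, 1 of the 8 tested genes was higher and 1 lower with TBX2, where 17.0% and 15.6% of all tested genes were. With TBX3, 1 was higher and 0 lower, against 8.47% and 6.4% of all tested genes. With TBX4, 0 passed in either direction, against 6.97% and 6.07%, while 2 had an unadjusted p under 0.05 and DESeq2 also called 0. With TBX5, 3 were higher and 2 lower, against 6.55% and 6.12%. The median log2 fold change of the 8 genes was -0.04 (TBX2), 0.11 (TBX3), -0.11 (TBX4) and 0.29 (TBX5), beside medians of all tested genes between -0.00584 and -0.00131.

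**Figure D2:**
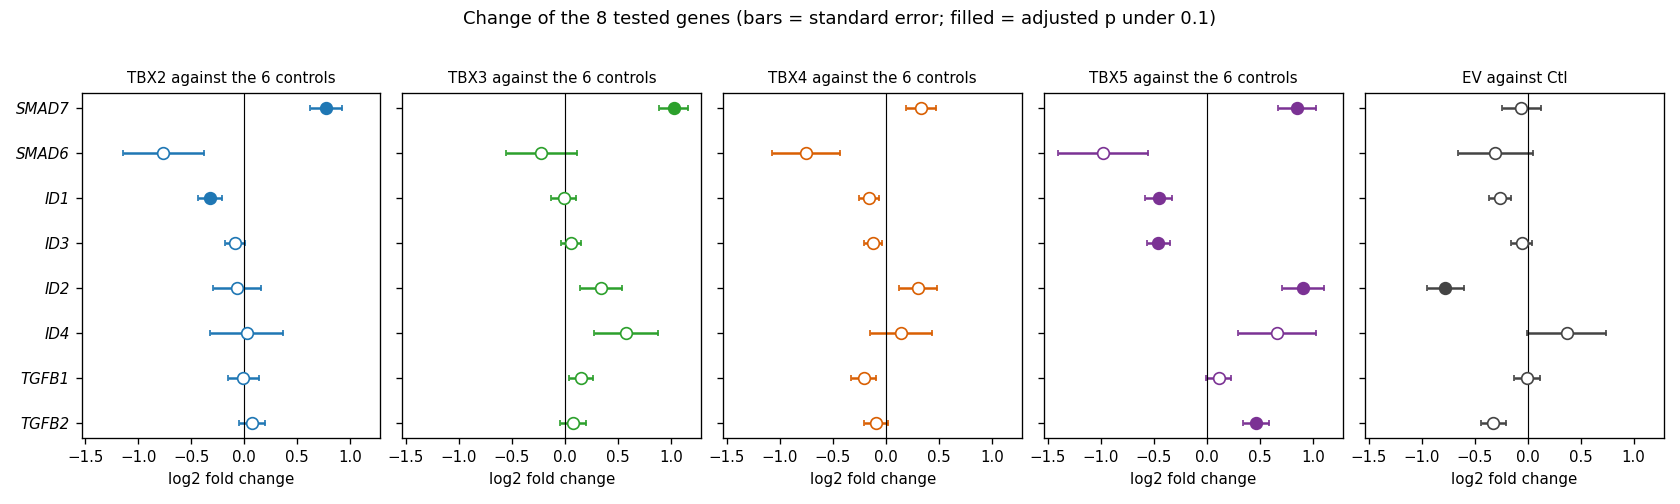
Log2 fold change of the 8 tested genes (rows) in each TBX group against the 6 controls and in EV against Ctl, with the standard error as a bar and a filled point where the adjusted p is under 0.1. SMAD7 is filled with TBX2, TBX3 and TBX5, and TBX5 has 5 filled points, the most of the comparisons shown.

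The ligand TGFB1 (ENSG00000105329, chr19:41807492-41859827), the main TGF-beta of most tissues, did not pass the threshold in any comparison. Its level in the controls was 25.3 to 40.1 CPM with a median of 35.8. The 12 TBX libraries ran from 22.6 CPM (TBX2 replicate b) to 43.6 CPM (TBX3 replicate a). Its log2 fold change was -0.01 (SE 0.15) with TBX2, 0.15 (SE 0.11) with TBX3, -0.21 (SE 0.11) with TBX4 and 0.11 (SE 0.12) with TBX5. Replicates spread widely within a group: TBX2 alone held 38.7, 22.6 and 41.6 CPM. With TBX4 (23.2, 31.1 and 33.8 CPM), TGFB1 was called lower only when EV replicate c, the lowest control, was left out (-0.29, adjusted p = 0.0516 by edgeR). It was at -0.31 (adjusted p = 0.153) without TBX4 replicate c.

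The second ligand, TGFB2 (ENSG00000092969, chr1:218518678-218617961), rose with TBX5. It held 13.3, 11.9 and 14.3 CPM in the TBX5 libraries and 8.11 to 10.8 CPM in the controls, with a median of 9.58. All 3 TBX5 libraries lay above all 6 controls. The log2 fold change was 0.47 (SE 0.12, adjusted p = 0.0198 by edgeR's quasi-likelihood test), a 1.38-fold rise. With TBX2 (9.65, 9.66 and 11.2 CPM), TBX3 (11.1, 10.4 and 9.14 CPM) and TBX4 (8.97, 8.56 and 9.44 CPM) the libraries overlapped the controls. Of the exon bases of TGFB2, 34.2% overlap another gene, and the default counting drops reads that fall on both. The call was lost without TBX5 replicate c (0.42, adjusted p = 0.106).

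BMP4 (ENSG00000125378, chr14:54416454-54425479), the best-known BMP of lung development, was near the limit of detection, taken as 3 counts (0.191 to 0.595 CPM in a library). Its counts were 4, 2 and 2 in EV and 3, 2 and 2 in Ctl. They were 2, 3 and 2 with TBX2, 2, 3 and 5 with TBX3, 8, 6 and 4 with TBX4, and 10, 0 and 5 with TBX5. The highest and the lowest count of the series were thus both in TBX5 libraries, and no difference was called at this depth when every gene with a count was tested (log2 fold change with TBX5 1.64, SE 0.58, adjusted p = 0.101 by edgeR). BAMBI (ENSG00000095739, chr10:28966439-28971861), the decoy receptor, had 3 counts in EV replicate b and 0 in the other 5 controls. It had 0 counts in all TBX2 libraries, 1 in a single TBX3 library, 1, 0 and 1 with TBX4, and 1, 0 and 2 with TBX5. A count of 0 allows up to 3 counts, so BAMBI was at or under the floor in every library.

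SMAD7 (ENSG00000101665, chr18:46446223-46477335), the inhibitory SMAD that blocks both branches, was the member that changed in most groups. It held 3.88, 6.01 and 4.66 CPM in EV and 4.02, 5.50 and 5.55 CPM in Ctl. With TBX3 it held 9.83, 10.4 and 9.98 CPM, close together and well above every control. The log2 fold change with TBX3 was 1.02 (SE 0.13, adjusted p = 1.5e-05 by edgeR), a 2.03-fold rise. With TBX2 it held 7.69, 9.56 and 7.79 CPM, a log2 fold change of 0.77 (SE 0.15, adjusted p = 0.000489), and again no TBX2 library overlapped a control. With TBX5 it held 6.55, 11.5 and 10.1 CPM, a log2 fold change of 0.85 (SE 0.18, adjusted p = 0.00406). Replicate a sat just above the highest control, 6.01 CPM, and replicates b and c, the libraries in which 1 gene took 53.5% and 52.7% of the counts, were the high ones. With TBX5 replicate a as the only TBX5 library, the log2 fold change was 0.41, a value whose error would rest on the spread of the 6 controls alone, and with the top gene's share of each library in the model it was 0.74 (SE 0.18, adjusted p = 0.00867). With TBX4 the values were 6.65, 6.15 and 5.83 CPM, of which replicate c lay below the highest control. The log2 fold change of 0.33 (SE 0.14) did not pass (adjusted p = 0.155 by edgeR), nor did the 0.37 (SE 0.16, adjusted p = 0.186) found without TBX4 replicate c.

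SMAD6 (ENSG00000137834, chr15:66994574-67075187), the inhibitory SMAD of the BMP branch, was counted 8 to 14 times in each control. The counts were 4, 9 and 2 with TBX2, 4, 9 and 12 with TBX3, 7, 9 and 6 with TBX4, and 3, 3 and 4 with TBX5. On the CPM scale the TBX4 and TBX5 libraries lay below all 6 controls, 0.766 to 1.39 CPM. The log2 fold change was -0.75 (SE 0.32, adjusted p = 0.157) with TBX4 and -0.98 (SE 0.43, adjusted p = 0.169) with TBX5 by edgeR, so neither passed. With the top gene's share of each library in the model, SMAD6 with TBX5 came just under the threshold (-1.16, adjusted p = 0.0998 by edgeR). Without TBX4 replicate c it was at -0.69 with TBX4 (adjusted p = 0.312). It was -0.76 (SE 0.38) with TBX2 and -0.22 (SE 0.34) with TBX3, and at this depth SMAD6 and SMAD7 had fitted changes of opposite sign in all 4 comparisons.

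ID1 (ENSG00000125968, chr20:30193086-30194318), the most strongly expressed of the ID genes, held 20.0, 16.6 and 23.8 CPM in EV and 23.1, 25.8 and 25.0 CPM in Ctl. With TBX5 it held 18.8, 14.1 and 15.6 CPM, a log2 fold change of -0.45 (SE 0.13, adjusted p = 0.0290 by edgeR). Replicates b and c were below every control, while replicate a was above EV replicate b, the lowest control. With TBX2 it held 19.6, 18.3 and 15.6 CPM, a log2 fold change of -0.32 (SE 0.12, adjusted p = 0.0423), and 2 of its 3 libraries overlapped the range of the controls. The call with TBX2 was lost without TBX2 replicate c (log2 fold change -0.25, adjusted p = 0.184). The call with TBX5 was lost without replicate b (-0.37, adjusted p = 0.145) and without replicate c (-0.42, adjusted p = 0.124). With TBX3 (27.4, 20.1 and 20.3 CPM) and TBX4 (19.5, 20.6 and 20.7 CPM) the log2 fold changes were -0.01 (SE 0.11) and -0.16 (SE 0.10) and did not pass.

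ID3 (ENSG00000117318, chr1:23884417-23885992) held 13.7 to 16.4 CPM in the controls, with a median of 15.6. TBX5 lowered it to 11.4, 12.1 and 10.2 CPM, all below the lowest control. The log2 fold change was -0.46 (SE 0.11, adjusted p = 0.00808 by edgeR), and the call held with each of the 9 libraries left out in turn. The log2 fold changes with TBX2, TBX3 and TBX4 were -0.09 (SE 0.10), 0.06 (SE 0.09) and -0.12 (SE 0.08), none past the threshold. Their 95% intervals reached from -0.28 to 0.24, and that with TBX5 from -0.66 to -0.25. ID3 was 0.34 lower with TBX5 than with TBX4 (SE 0.12), which did not pass (adjusted p = 0.379 by edgeR).

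ID2 (ENSG00000115738, chr2:8818975-8824591) moved the other way with TBX5. The TBX5 libraries held 9.10, 8.73 and 8.37 CPM, above every other library of the series. The log2 fold change was 0.91 (SE 0.20, adjusted p = 0.00500 by edgeR), a 1.88-fold rise, and the call held with each of the 9 libraries left out. In TBX5 replicate a alone, the TBX5 library with the smallest share in 1 gene, the log2 difference from the controls was 0.96 for ID2, -0.43 for ID3, 0.48 for TGFB2 and -0.27 for ID1, beside 0.91, -0.46, 0.47 and -0.45 with all 3. The controls were split: EV held 3.66, 2.90 and 3.70 CPM and Ctl held 6.57, 5.41 and 5.85 CPM. With TBX2 (3.45, 5.53 and 4.22 CPM), TBX3 (4.59, 6.49 and 6.40 CPM) and TBX4 (5.05, 6.38 and 5.93 CPM) the libraries lay between or across these 2 kinds of control. ID4 (ENSG00000172201, chr6:19837601-19842428) was counted 4 to 16 times in a library, and its log2 fold changes were 0.02 (SE 0.34) with TBX2, 0.57 (SE 0.30) with TBX3, 0.14 (SE 0.29) with TBX4 and 0.66 (SE 0.37) with TBX5. None passed, and TBX5 itself ran from 0.888 to 2.58 CPM.

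The control cells themselves differed for some of these genes. Of the 8 tested, 1 was called lower in EV than in Ctl and 0 higher, where 0.103% and 0.282% of all tested genes were. That gene was ID2, with a log2 difference of -0.78 (SE 0.17, adjusted p = 0.0708 by edgeR) and no overlap between the 2 sets of 3. DESeq2 did not call it (adjusted p = 0.369), and leaving out a library kept the call in 1 of 6 cases, that without Ctl replicate c. TGFB2 also did not overlap (8.11, 8.59 and 8.68 CPM in EV, 10.8, 10.5 and 10.6 CPM in Ctl), with a log2 difference of -0.32 that did not pass (adjusted p = 0.382 by edgeR), and ID1 was at -0.26 (SE 0.10, adjusted p = 0.446).

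So the choice of control set which members were called. Against EV alone, ID2 was higher with TBX3 (log2 fold change 0.77, SE 0.19, adjusted p = 0.0147 by edgeR), with TBX4 (0.73, SE 0.17, adjusted p = 0.0106) and with TBX5 (1.34, SE 0.17, adjusted p = 0.000121). Against Ctl alone it was higher with TBX5 (0.56, SE 0.15, adjusted p = 0.0447) and close to 0 with TBX3 and TBX4. With TBX2 the fitted value of ID2 was 0.37 against EV and -0.41 against Ctl, neither past the threshold. ID1 went the other way: against Ctl alone it was lower with TBX2 (-0.45, SE 0.10, adjusted p = 0.00484), TBX4 (-0.29, SE 0.08, adjusted p = 0.0396) and TBX5 (-0.58, SE 0.11, adjusted p = 0.00648). Against EV alone it passed with none of these, at -0.18 (adjusted p = 0.339) with TBX2 and -0.31 (adjusted p = 0.197) with TBX5. TGFB2 with TBX5 was 0.64 (adjusted p = 0.00669) against EV and 0.31 (adjusted p = 0.171) against Ctl. SMAD7 and ID3 did not depend on this choice. SMAD7 was called against either control with TBX2 (0.81 and 0.74), TBX3 (1.05 and 0.99) and TBX5 (0.88 and 0.82), as was ID3 with TBX5 (-0.43 and -0.48, adjusted p = 0.0479 and 0.0287 by edgeR).

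**Figure D3:**
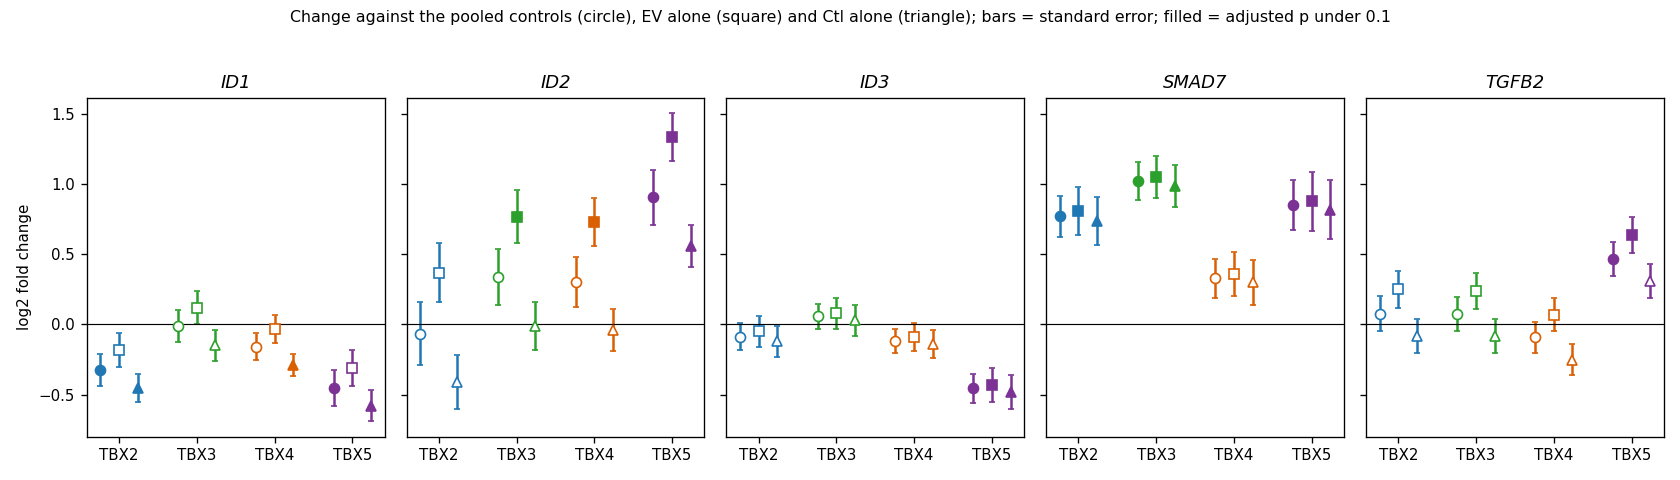
Log2 fold change of 5 genes with each TBX against the pooled controls (circle), EV alone (square) and Ctl alone (triangle), with the standard error as a bar and a filled point where the adjusted p is under 0.1. The 3 symbols lie together for SMAD7 and ID3 and apart for ID2, where TBX5 gives 1.34 against EV and 0.56 against Ctl.

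The TBX groups were then compared with each other, with no control library in the contrast, in 1 fit of all 18 libraries. The plasmids of TBX3 and TBX5 differ from those of TBX2 and TBX4 in vector and tag, and plasmid gene levels differ too. In a contrast across them, the T-box gene cannot be told apart from these. Vector and tag limit the comparisons with the controls as well, as stated above. SMAD7 was higher with TBX3 than with TBX4 by 0.69 on the log2 scale (SE 0.16, adjusted p = 0.00843 by edgeR), and by 0.65 (adjusted p = 0.0327) without TBX4 replicate c. It was the 1 gene of 8 called between TBX3 and TBX4, where 9.97% of all tested genes were. SMAD7 with TBX2 lay 0.44 above TBX4 (SE 0.17, 95% interval 0.10 to 0.77) and with TBX5 0.52 above TBX4 (SE 0.18, 0.17 to 0.87), which did not pass after adjustment (adjusted p = 0.114 and 0.379 by edgeR). Without TBX4 replicate c these differences were 0.40 and 0.48 (adjusted p = 0.224 and 0.507). Between TBX2, TBX3 and TBX5 themselves no SMAD7 difference passed, with intervals from -0.57 to 0.51.

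For the 8 tested genes, the other differences between TBX groups that passed all involved TBX5. Against TBX2, 3 of 8 were called, against 12.1% of all tested genes. By edgeR, ID2 was 0.98 higher with TBX5 (SE 0.18, adjusted p = 0.000686), TGFB2 0.39 higher (adjusted p = 0.0419) and ID3 0.37 lower (adjusted p = 0.0638). DESeq2 called ID2, but neither TGFB2 (adjusted p = 0.14) nor ID3 (adjusted p = 0.16). Against TBX3, 4 of 8 were called, against 7.41%: ID2 (0.57 higher with TBX5, adjusted p = 0.0480 by edgeR) and TGFB2 (0.39 higher, adjusted p = 0.0526) were higher with TBX5, and ID3 (0.51 lower, adjusted p = 0.00946) and ID1 (0.44 lower, adjusted p = 0.0649) were lower. DESeq2 called 3 of these 4 and not TGFB2 (adjusted p = 0.165). Against TBX4, 1 of 8 was called, against 0.539%: TGFB2 was 0.56 higher with TBX5 (SE 0.12, adjusted p = 0.0316), and 0.59 (adjusted p = 0.0709) without TBX4 replicate c. ID2 was 0.60 higher with TBX5 than with TBX4 (SE 0.16, 95% interval 0.28 to 0.92) but did not pass (adjusted p = 0.148 by edgeR, and 0.263 without TBX4 replicate c). Between TBX2 and TBX3 and between TBX2 and TBX4, 0 of the 8 genes were called, where 15.5% and 12.3% of all tested genes were. In each, 2 had an unadjusted p under 0.05 by edgeR, and DESeq2 called 0.

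To place the 10 genes in their pathway, 138 other genes of the pathway were followed, of which 91 were tested. Their lists were chosen with earlier results of these data known, so the shares below are a description and no test of enrichment. A gene in several lists counts under each of them. With TBX2, 23 were higher (25.3%) and 19 lower (20.9%). TBX3 had 17 higher and 4 lower, TBX4 13 and 10, and TBX5 21 and 6, or 23.1% and 6.59% of those tested. Over all tested genes, 17.0% were higher and 15.6% lower with TBX2, 8.47% and 6.4% with TBX3, 6.97% and 6.07% with TBX4, and 6.55% and 6.12% with TBX5, and the counts of each list below are to be read against these shares. EV against Ctl had 3 higher (3.3%, against 0.282% of all tested genes) and 0 lower (against 0.103%). The median log2 fold change of the 91 was 0.05 (TBX2), 0.07 (TBX3), -0.0033 (TBX4) and 0.07 (TBX5). The calls named next that rest on TBX4 replicate c are those of SKIL, SMAD3, FBN2 and ELK1 with TBX4, at adjusted p of 0.204, 0.171, 0.153 and 0.299 by edgeR without it.

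Among other ligands, GDF6, a BMP-type growth factor, rose with TBX4 (log2 fold change 0.99, SE 0.27) and TBX5 (1.06, SE 0.34, adjusted p = 0.0547 by edgeR), where the latter call ended without TBX5 replicate b or c and was kept in 15 of 21 other settings. BMP6 rose with TBX5 (0.70, SE 0.14). TGFB3 rose with TBX2 (0.56, SE 0.17), and BMP8B was called higher with TBX3 (0.59, SE 0.21) in 9 of 20 other settings and with TBX5 (0.66, SE 0.24) in 7 of 22. The ligands INHBA, INHBB, NODAL, LEFTY1 and LEFTY2 had at most 3 counts in every library. Of 13 tested receptors and co-receptors, 2 rose (15.4%, against 17.0% of all tested genes) and 3 fell (23.1%, against 15.6%) with TBX2. The 3 that fell were the TGF-beta receptors TGFBR1 (-0.23, SE 0.09) and TGFBR2 (-0.33, SE 0.09) and the BMP receptor BMPR1A (-0.26, SE 0.09), and ACVR1 (0.43, SE 0.12) and RGMB (0.21, SE 0.08) rose. The calls of TGFBR1 and BMPR1A ended against EV alone and without TBX2 replicate a or b, and that of RGMB against either control alone, being kept in 15, 17 and 14 of 21 other settings. ACVR1 also rose with TBX3 (0.42, SE 0.11). The nodal and activin receptor ACVR1C rose with TBX4 (0.79, SE 0.17) and TBX5 (1.00, SE 0.20), and TGFBR3 was called higher with TBX5 (0.20, SE 0.07), a call kept in 7 of 22 other settings. BMPR2 passed in none of the 4, with log2 fold changes from -0.03 to 0.12.

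Of the 6 signalling SMADs, SMAD2 (-0.26, SE 0.06) and SMAD3 (-0.37, SE 0.07) fell with TBX2, and SMAD3 was called lower with TBX4 (-0.16, SE 0.06, adjusted p = 0.0901 by edgeR), a call kept in 7 of 21 other settings. The other 4 passed in no TBX comparison. SMAD3 held 114, 103 and 103 CPM with TBX2, below all 6 controls, which ran from 125 to 150 CPM. Of the 21 inhibitory SMADs and intracellular regulators, 8 rose (38.1%, against 17.0% of all tested genes) and 3 fell (14.3%, against 15.6%) with TBX2, and 7 rose (33.3%, against 8.47%) and 0 fell with TBX3. With TBX4, 3 rose and 2 fell, and with TBX5, 3 and 1. SKIL, a repressor of SMAD target genes, rose with TBX2 (0.64, SE 0.07), TBX3 (0.63, SE 0.06) and TBX4 (0.23, SE 0.07), and RNF111, a ubiquitin ligase that removes SKIL and SMAD7, rose with TBX2 (0.54, SE 0.09) and TBX3 (0.49, SE 0.08). SKIL was higher with TBX2 than with TBX5 by 0.47 (SE 0.08, adjusted p = 0.000326 by edgeR) and with TBX3 than with TBX5 by 0.46 (SE 0.08, adjusted p = 0.000900). PMEPA1, which holds SMAD2 and SMAD3 away from the receptor, rose with TBX2 (0.54, SE 0.11) and TBX5 (0.61, SE 0.11).

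LDLRAD4, a membrane protein that works like PMEPA1, rose more with TBX2 than any of the 10 genes changed. It held 9.42, 10.9 and 9.90 CPM with TBX2 and 0.298 to 1.15 CPM in the controls, a log2 fold change of 3.70 (SE 0.20, adjusted p = 3.84e-12 by edgeR). It was 2.94 higher with TBX2 than with TBX4 and 3.60 higher than with TBX5 on the log2 scale, each past the threshold.

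**Figure D4:**
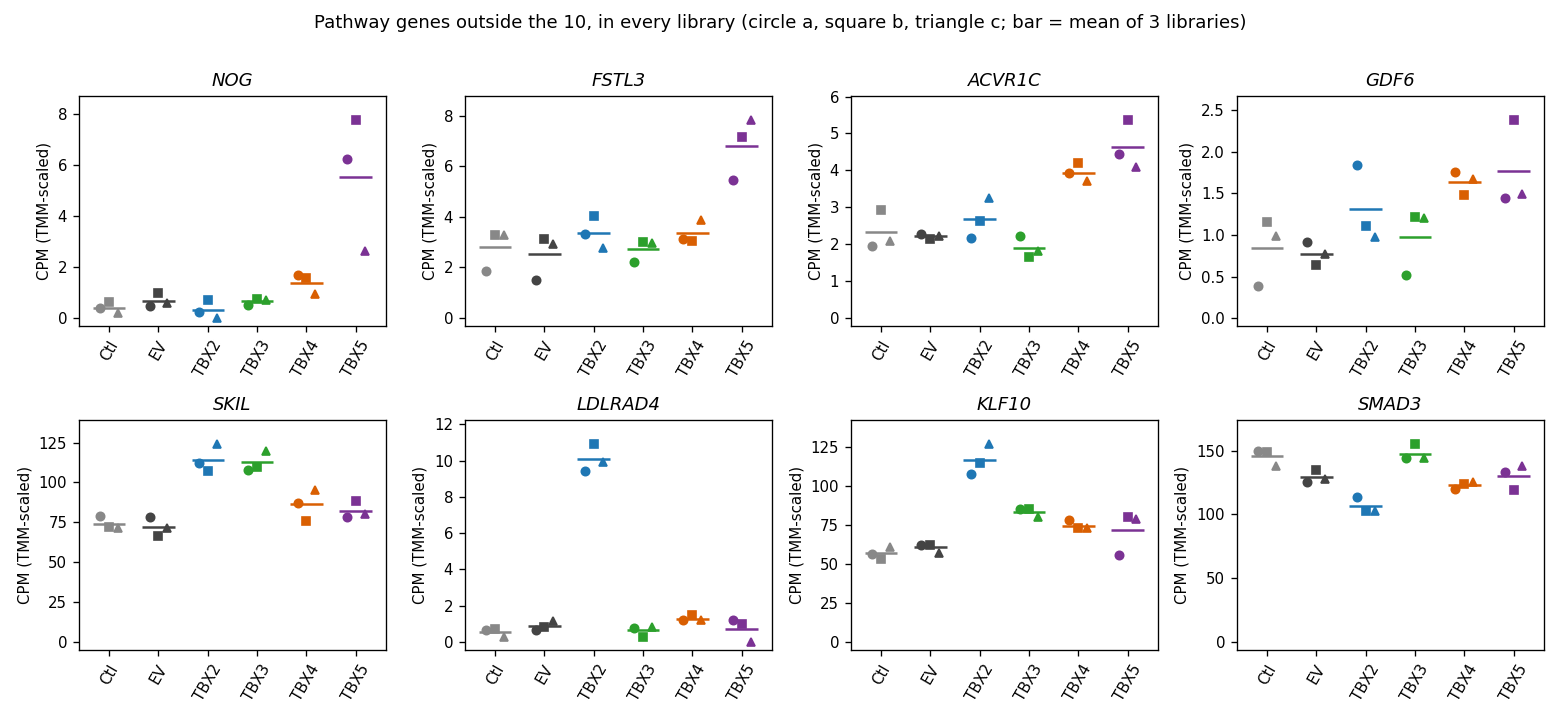
CPM (TMM-scaled, linear axis) of 8 pathway genes outside the 10 in every library, by group, with replicate a as a circle, b as a square, c as a triangle and the mean of 3 libraries as a bar. NOG and FSTL3 are highest in TBX5, LDLRAD4 and KLF10 in TBX2, and SMAD3 is lowest in TBX2.

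NOG, the BMP antagonist noggin, held 6.21, 7.74 and 2.61 CPM with TBX5, 1.68, 1.56 and 0.926 CPM with TBX4, and 0.198 to 0.966 CPM in the controls. All TBX5 libraries lay above every other library, and the log2 fold change was 3.34 (SE 0.33, adjusted p = 5.38e-07 by edgeR) with TBX5 and 1.37 (SE 0.33, adjusted p = 0.00875) with TBX4. The difference of 1.98 between TBX5 and TBX4 also passed (SE 0.32, adjusted p = 0.00182). FSTL3, which binds activin, rose with TBX5 (1.28, SE 0.21) and was 0.99 higher than with TBX4 (SE 0.22, adjusted p = 0.0501). Of the 13 tested antagonists and latency proteins, 5 rose (38.5%, against 6.55% of all tested genes) and 2 fell with TBX5, and 1 rose and 6 fell (46.2%, against 15.6%) with TBX2. With TBX3, 0 rose and 2 fell, and with TBX4, 1 and 4. THBS1, which activates latent TGF-beta, fell in all 4 comparisons, from TBX3 (-0.27, SE 0.08) and TBX2 (-0.30, SE 0.08) to TBX4 (-0.58, SE 0.07) and TBX5 (-0.72, SE 0.08), and the matrix protein FBN2 fell with TBX2 (-0.86, SE 0.07), TBX3 (-0.29, SE 0.06) and TBX4 (-0.23, SE 0.06).

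Of the 24 tested targets of SMAD2 and SMAD3, a list that holds the members SMAD7, TGFB1 and BMP4, 12 were higher (50.0%, against 17.0% of all tested genes) and 3 lower (12.5%, against 15.6%) with TBX2. With TBX3, 10 were higher (41.7%, against 8.47%), with TBX4 8 (33.3%, against 6.97%) and with TBX5 10 (41.7%, against 6.55%), and 3, 2 and 3 were lower. SMAD7, SKIL, PMEPA1 and LDLRAD4, all called higher with TBX2, are also among the intracellular regulators counted above. These calls count in both lists, whose shares are therefore not separate results. The median log2 fold change of the 24 targets was 0.27 (TBX2), 0.19 (TBX3), 0.29 (TBX4) and 0.25 (TBX5), where the medians of all tested genes were as given above. KLF10 rose with TBX2 (0.99, SE 0.07), TBX3 (0.51, SE 0.06), TBX4 (0.34, SE 0.06) and TBX5 (0.27, SE 0.09), though the last call was kept in 10 of 22 other settings. JUNB rose with TBX2 (0.64, SE 0.11), TBX3 (0.95, SE 0.11) and TBX4 (0.48, SE 0.10). SNAI1, the repressor known from the mesenchymal change, was counted few times and rose with all 4, by 1.21 (SE 0.36), 1.11 (SE 0.34), 1.31 (SE 0.31) and 1.46 (SE 0.38), while its level in EV, 0.766 to 1.26 CPM, did not overlap that in Ctl, 0.196 to 0.710 CPM. Against EV alone the calls with TBX2 (0.78), TBX3 (0.68) and TBX5 (1.03) were lost, and that with TBX4 (0.88) was kept. Of the 17 tested targets of SMAD1 and SMAD5, a list that holds 6 of the 8 tested members, 5 were higher (29.4%, against 17.0% of all tested genes) and 2 lower (11.8%, against 15.6%) with TBX2. With TBX3, 3 were higher (17.6%, against 8.47%) and 0 lower, and with TBX4 the share was 5.88% in each direction, under that of all tested genes. With TBX5, 5 were higher (29.4%, against 6.55%) and 2 lower (11.8%, against 6.12%). HEY1 (2.47, SE 0.26), GATA3 (1.13, SE 0.36) and STC1 (0.77, SE 0.09) rose with TBX2. GATA3 was counted only 10, 8 and 9 times in the TBX2 libraries. Its call was kept in 18 of 20 other settings and ended without TBX2 replicate c. HEY1 also rose with TBX5 (1.18, SE 0.37), a call kept in 13 of 21 other settings. STC1 differed between the controls too, higher in EV (0.33, SE 0.07, adjusted p = 0.0733 by edgeR).

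Of 9 tested E proteins and other partners of ID proteins, 2 rose and 2 fell with TBX2, 0 and 0 with TBX3, 1 and 1 with TBX4, and 2 and 1 with TBX5. The E protein TCF3 fell with TBX2 (-0.38, SE 0.07) and TBX5 (-0.22, SE 0.08, adjusted p = 0.0935 by edgeR, kept in 11 of 22 other settings). TCF4 and TCF12 passed in no TBX comparison with the controls, with log2 fold changes from -0.10 to 0.09. Of other partners, HES1, a Notch target, rose with TBX4 (0.58, SE 0.13) and TBX5 (1.01, SE 0.15). ELK1 fell with TBX2 (-0.31, SE 0.08) and TBX4 (-0.22, SE 0.08), the latter call kept in 12 of 21 other settings. ETS1 rose with TBX2 (0.24, SE 0.07), a call kept in 19 of 21 other settings and lost against EV alone.

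Across the 18 libraries, the genes whose log2 CPM ran most like that of SMAD7 were SERINC1 (Pearson's r = 0.923), ARRDC3 (0.905) and ZNF14 (0.901). For ID2 they were ENC1 (0.862), ZNF714 (0.839) and GTSE1 (0.825), for ID1 POLE (0.856), for ID3 KAT7 (0.853), for ID4 NDEL1 (0.852), for SMAD6 HNRNPDL (0.890), for TGFB1 SRRM2 (0.936) and for TGFB2 SNHG31 (0.815). These are the highest of 15576 genes over 18 libraries that share 6 groups and a depth, and are given as a description only.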

How the data were processed

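RNA of 18 libraries of NCI-H1299 cells was sequenced in paired ends. The authors used STAR 2.3.0 for alignment to GRCh37 and featureCounts, at default settings, for counting, and deposited raw counts per Ensembl gene. These settings ignore strand and drop reads that fall on several genes. Groups and replicate letters came from the sample titles. A gene was tested if over 5 reads were counted in 10 or more of the 18 libraries (15576 genes). The study compared each TBX separately with control cells. Here EV and Ctl were pooled as the controls and tested with edgeR 4.0.16 (R 4.3.3), its quasi-likelihood test, TMM scaling, Benjamini-Hochberg adjustment over all tested genes and a false-discovery rate of 0.1. Pairs of TBX groups were compared in 1 edgeR fit. Standard errors were derived from the log2 fold change and its F statistic. RPKM used exon lengths of a GENCODE annotation lifted to GRCh37, not the annotation of the authors, and gene coordinates come from it. The floor of 3 counts covers counting error only, as the reads carry no molecular identifiers. The model was tested on simulated data. The alternatives were DESeq2 1.42.0, other scalings and filters, a false-discovery rate of 0.05, the replicate letter as a block, either control alone, and each library left out. A model with the top gene's share of each library, and TBX5 replicate a alone, were added after the data were seen. Named pathway genes are the main receptors, SMADs and E proteins and, of each pathway list, up to 4 further genes past the threshold with the largest change. The ligands at the floor were named outside this rule, after their values were seen. The 10 genes and the lists were chosen with earlier results of these data known.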

Additional observations from a re-analysis of the deposited data

Results flagged for a closer look

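In the 6 control libraries, the 10 genes were checked for a single library far from the others. BAMBI was marked: EV replicate b had 3 counts and the other 5 controls 0, so its gap to the nearest library was 1.0 of the whole range, above the critical value of 0.625 for 6 samples. With the other 5 controls at 0, this gap is 1.0 whatever count above 0 EV replicate b had. The critical value marks about 1 in 20 groups of normally distributed values, a rate that does not hold for such counts. The mark therefore says nothing beyond the 3 counts, which are the floor of detection. The part of counting error in the mark was not tested.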

How the results depend on the processing

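The counts of called genes below are out of 8. With each library left out in turn, 1 to 3 were called with TBX2 (2 in the comparison as reported; 1 without TBX2 replicate c, 3 without replicate b, with SMAD6 at -1.33), 1 to 1 with TBX3, 0 to 1 with TBX4 (1 without EV replicate b, ID1, or c, TGFB1), 3 to 5 with TBX5 (3 without TBX5 replicate c) and 0 to 1 for EV against Ctl. Library totals carry the most counted gene. Scaling by them put the median of all genes at 0.25 with TBX4, -0.31 with TBX5 and 0.20 for EV against Ctl. With that scaling, 98.8% of the calls with TBX4 were upward, against 53.5% as reported. Under it, 1 gene was called with TBX2, 2 with TBX4, 0 with TBX5, 0 for EV against Ctl, 0 for TBX2 against TBX5, for TBX3 against TBX4 and for TBX3 against TBX5, and 2 for TBX4 against TBX5. Of the values called as reported, it also turned the sign of TGFB2 between TBX4 and TBX5 (0.01). The same held for SMAD3 (0.10), FBN2 (0.03) and ELK1 (0.04) with TBX4, and for KLF10 (-0.08) and TGFBR3 (-0.10) with TBX5. None of these was then past the threshold. Values called in neither setting turned too, among them ID1 (0.11), ID3 (0.14), TGFB1 (0.05) and TGFB2 (0.17) with TBX4 and TGFB1 (-0.18) with TBX5. KLF10 was also at -0.08 with TBX5 replicate a as the only TBX5 library, where 1 of the 8 genes (ID2) was called, with the lone library assumed to vary like the controls. EV alone as control gave 1 with TBX2, 2 with TBX3 and 1 with TBX4, and Ctl alone 1 with TBX4. DESeq2, a false-discovery rate of 0.05 and the model with the top gene's share gave 0 for EV against Ctl. DESeq2 gave 1 for TBX2 against TBX5, and the rate of 0.05 gave 2 for TBX3 against TBX5. Separate fits of 6 libraries gave 1 for TBX2 against TBX4, 1 for TBX2 against TBX5 and 2 for TBX3 against TBX4.

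Over all tested genes, deviations of libraries that share a letter were uncorrelated on average (mean r 0.00182, -0.0887 to 0.132). Between different letters the mean r was -0.000864 (-0.139 to 0.156). No pairing by letter was seen in this mean, which cannot exclude one that moves few genes. With the replicate block, 0 genes were called for EV against Ctl and 1 for TBX2 against TBX4, and the other counts were as reported. The causes were not tested. Of the single values of the 8 genes under an alternative, 1062 kept their side of the threshold and, if called, their direction. A further 44 lost a call, 14 gained one and 1 changed sign where a call was involved. Sign changes of values called in neither setting are counted among the 1062. With 26 to 95 counts of ID2 or SMAD7 in a TBX2 library and 2 to 9 of SMAD6, depth limits the smaller changes.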
